A study of Arabidopsis thaliana with 36 samples.

Results

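The comparison described here is that of untreated wrky18 wrky40 seedlings with untreated wrky18 seedlings, and it measures what the loss of WRKY40 changed where WRKY18 was already lost. It was chosen by label and compares 6 of the 36 libraries of the series, 3 of each genotype, with all genes included. The series holds RNA-seq of Arabidopsis thaliana seedlings of 12 days, of Col-0 WT, wrky18, wrky40 and wrky18 wrky40, sampled before treatment (0 h) and then after 1 h or 2 h in medium with 1 µM flg22, a peptide of bacterial flagellin. Each of the 12 groups had 3 libraries, described by the submitters as biological replicates. Seedlings had grown in liquid MS medium with sucrose under long days, and polyA RNA came from whole seedlings. Both groups compared lacked WRKY18, neither had been given flg22 or fresh medium, and the label difference between them was the wrky40 mutation. The mutant alleles and the number of lines per genotype are not given in the sources used here. If each genotype was 1 line, any other difference between the lines and the loss of WRKY40 cannot be told apart.

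WRKY transcription factors bind the W box, a short DNA motif common in promoters of plant defence genes. WRKY18, WRKY40 and WRKY60 form a small related group in Arabidopsis whose members can bind each other, and WRKY18 and WRKY40 are known as partly redundant regulators that hold back some defence responses. flg22 is sensed by the receptor FLS2, and the signal passes through receptor-like kinases, an oxidative burst and calcium-dependent and MAP kinases to fast changes in transcription. Raw counts of the 6 libraries summed to 21181768 to 32720687 reads per library, against 17287229 to 38709715 over all 36. Of 32678 genes, 21356 had enough reads to be tested. Levels below are in CPM, read counts scaled to a common library size by TMM, and changes are log2 fold changes ± SE of wrky18 wrky40 over wrky18. Genes are termed called where edgeR's quasi-likelihood test gave a Benjamini-Hochberg adjusted p under 0.05, and every group had n = 3 libraries. Bulk RNA of whole seedlings cannot tell fewer cells of a type from less RNA per cell.

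The WRKY40 transcript was low in all untreated libraries labelled double mutant. It stood at 7.81, 7.43 and 10.8 CPM in replicates 1, 2 and 3 of wrky18 and at 1.05, 0.637 and 0.467 CPM in those of wrky18 wrky40. The groups did not overlap, and the change was -3.58 ± 0.35 (adjusted p = 1.74e-07). The remaining reads, 61 in all over the 3 double mutant libraries against 877 in wrky18, were also seen in the wrky40 single mutant, at 0.485 to 0.895 CPM. WRKY18 itself stayed countable in both groups. It stood at 12.4, 8.35 and 9.98 CPM in wrky18 and at 18.8, 15.9 and 14.2 CPM in wrky18 wrky40, where WT had 18.8 to 28.0 CPM. All 3 double mutant libraries were above all 3 of wrky18, with a rise of 0.68 ± 0.15 (adjusted p = 0.0205), which 8 of 13 other ways of testing also called. WRKY60 stood at 23.0 to 37.5 CPM in wrky18 and 19.8 to 27.6 CPM in the double mutant, and its change of -0.27 ± 0.23 was not called (adjusted p = 0.626).

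Loss of WRKY40 in the wrky18 background was followed by more rises than falls in untreated seedlings, most of them small. Of 21356 genes tested 312 (1.46%) were called, 215 higher (1.01%) and 97 lower (0.454%). The median change was 0.59 among the genes that rose and -0.60 among those that fell, against -0.01 over all genes tested, and 46 rises and 13 falls reached 2-fold. In 287 of the 312 called genes the 3 libraries of one group all lay above the 3 of the other. Separation was also a condition of the rule that chose the largest rises and falls to be named below, so it is no result for them. In other genes named because they were called it adds little, since most called genes show it. Separation was seen upward in 7.26% and downward in 8.58% of all genes tested. The plot of change against level shows WRKY40, MRD1 and BGL2 outside the bulk of the genes.

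The count depended on how the spread between libraries was estimated. Same-numbered replicates of the genotypes deviated together, and a fit with the replicate as a block called 640 genes, 311 of the 312 among them. Fits of the 12 untreated libraries alone or of the 6 compared libraries alone, without the block, called 5 and 6 genes. The count was 543, 69 and 35 without replicate 1, 2 or 3 of wrky18 wrky40, and 118, 16 and 725 without replicate 1, 2 or 3 of wrky18. WRKY40, MRD1, HEI10 and AT5G24240 were called in all 13 alternatives tried.

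**Figure D1:**
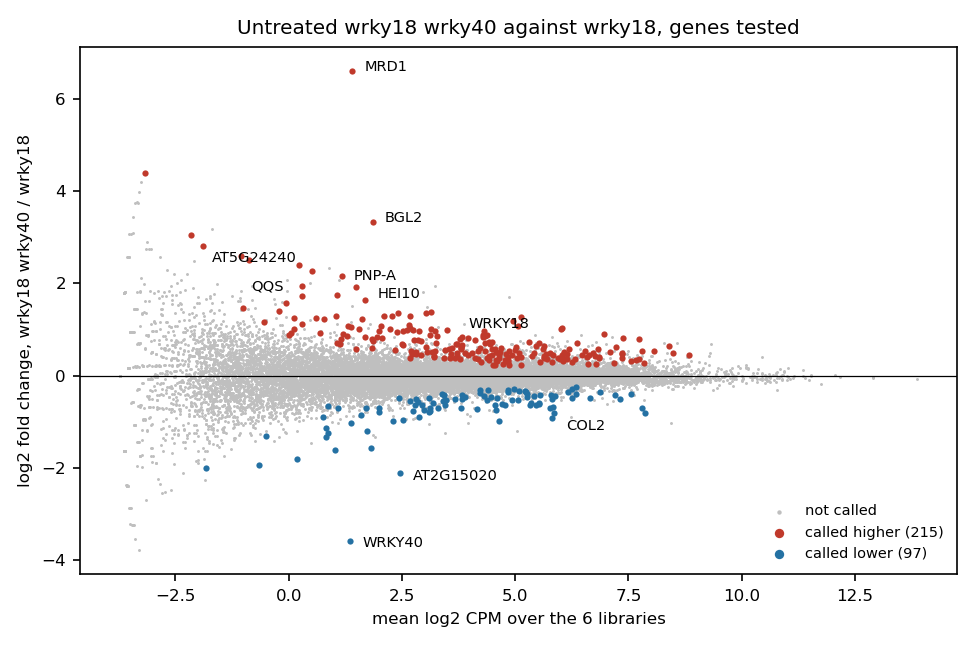
Mean level over the 6 libraries (log2 CPM, x axis) against the log2 fold change of wrky18 wrky40 over wrky18 (y axis) for the genes tested, grey where not called, red for the 215 called higher and blue for the 97 called lower. MRD1, BGL2 and WRKY40 lie at 6.61, 3.33 and -3.58 on the y axis.

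The gene with the smallest adjusted p was MRD1. MRD1 (AT1G53480, chr1:19963047-19964712, minus strand; named mto 1 responding down 1 in the annotation) stood at 0.215, 0.236 and 0.238 CPM in wrky18 and at 25.3, 20.8 and 22.9 CPM in wrky18 wrky40. It was near 0 in every wrky18 library and plainly present in every double mutant library, a change of 6.61 ± 0.24 (adjusted p = 9.23e-19). HEI10 (AT1G53490), a RING protein needed for meiotic crossovers, lies on the opposite strand and shares 1446 bp with MRD1. It stood at 1.86, 1.80 and 1.66 CPM in wrky18 and 5.31, 5.37 and 5.86 CPM in the double mutant, without overlap, a change of 1.63 ± 0.17 (adjusted p = 9.13e-07). The strand setting of the counting is not stated, so reads of these 2 genes cannot be told apart. The pair lies 10418849 bp from WRKY40 on chromosome 1.

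AT5G24240, annotated as a phosphatidylinositol 4-kinase gamma-like protein, rose in the double mutant. It stood at 0.788, 0.649 and 0.423 CPM in wrky18 and at 3.0, 2.88 and 2.97 CPM in wrky18 wrky40, with no overlap and a change of 2.28 ± 0.29 (adjusted p = 5.25e-05). QQS, an orphan gene of Arabidopsis known to affect leaf starch, rose from 0.537, 0.738 and 0.475 CPM to 2.78, 2.15 and 1.79 CPM, a change of 1.94 ± 0.31 (adjusted p = 0.00178), and was called in 12 of the 13 alternatives. WT had 1.28 to 1.75 CPM of QQS and wrky40 9.15 to 12.5 CPM, so that the double mutant lay just above WT and wrky18 below it. ARCK1, a cytosolic receptor-like kinase, rose from 4.87, 3.72 and 4.38 CPM to 10.07, 8.37 and 7.31 CPM, a change of 1.00 ± 0.14 (adjusted p = 0.000152), called in 11. Levels of all 3 genes were separate between the groups, and each gene was well above wrky18 in every double mutant library.

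**Figure D2:**
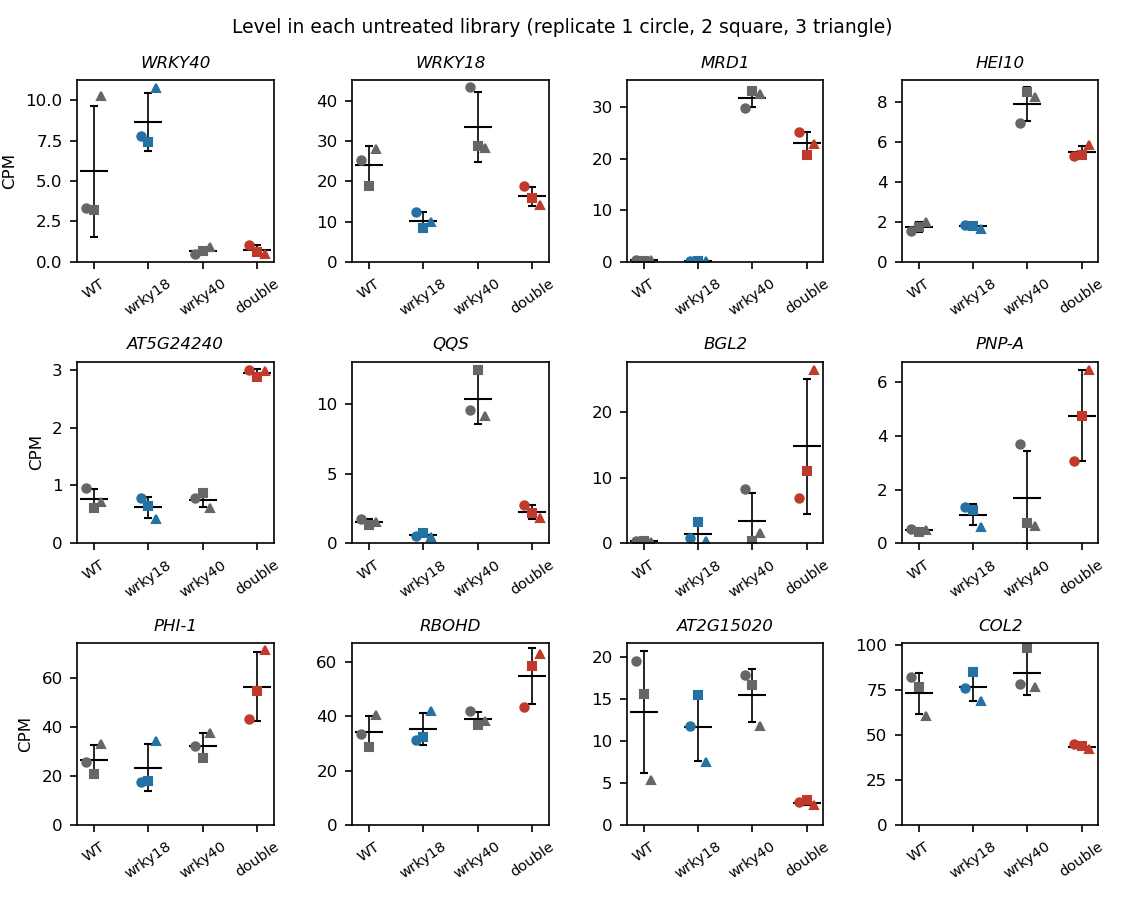
Level in CPM (y axis, from 0) of 12 genes in each of the 12 untreated libraries, by genotype (x axis; wrky18 blue, wrky18 wrky40 red, the other genotypes grey), with the mean and SD of 3 libraries as a black bar. MRD1 and HEI10 are high in both genotypes that lack WRKY40, QQS stands at 9.15 to 12.5 CPM in wrky40 and 1.79 to 2.78 CPM in the double mutant, and AT5G24240 stands near 3 CPM in the double mutant and under 1 CPM in the other 3 genotypes.

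Other large rises included secreted defence products. BGL2, the beta-1,3-glucanase also known as the salicylic acid marker PR2, stood at 0.824, 3.25 and 0.291 CPM in wrky18 and at 6.82, 11.1 and 26.3 CPM in the double mutant. The groups were separate but the spread within each was wide, and the change was 3.33 ± 0.81 (adjusted p = 0.0333), called in 5 of 13 alternatives. PNP-A, a secreted natriuretic-like peptide, rose from 1.36, 1.24 and 0.608 CPM to 3.07, 4.76 and 6.46 CPM, a change of 2.17 ± 0.37 (adjusted p = 0.0032). PDF1.2, a plant defensin used as a marker of jasmonate and ethylene, had 2.65, 1.18 and 0.792 CPM in wrky18 and 6.79, 6.67 and 3.48 CPM in the double mutant, a change of 1.92 ± 0.45 (adjusted p = 0.0254). Its close paralogs can share reads with it. GSTF14, a phi-class glutathione transferase, rose by 1.74 ± 0.32 (adjusted p = 0.00586), from 0.86, 1.53 and 1.00 CPM to 3.90, 4.88 and 2.59 CPM.

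The next 6 rises by the naming rule lay between 1.29 and 1.37. CML38, a calmodulin-like protein, stood at 2.62, 1.45 and 6.66 CPM in wrky18 and 9.28, 10.2 and 8.71 CPM in the double mutant (adjusted p = 0.039). Replicate 3 was the highest of wrky18 in CML38, as it was in the other genes, the formin-like AT1G50040, AT4G24110, AT1G62420, SRO5 and AT1G77640, a DNA-binding protein. AT4G24110 rose by 1.36 ± 0.26 (adjusted p = 0.0079), from 3.83, 3.304 and 8.72 CPM to 11.9, 14.98 and 14.5 CPM. SRO5 overlaps a gene on the other strand by 905 bp.

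Among the falls, AT2G15020, an uncharacterised protein, came next after WRKY40 by size among those the naming rule chose. It stood at 11.8, 15.5 and 7.53 CPM in wrky18 and at 2.71, 2.91 and 2.34 CPM in wrky18 wrky40, a change of -2.12 ± 0.34 (adjusted p = 0.00194). GPRI1, the transcription factor also called GLK1 that drives chloroplast genes, fell from 86.8, 90.6 and 56.9 CPM to 39.3, 37.5 and 47.6 CPM, a change of -0.91 ± 0.16 (adjusted p = 0.00396). Both genes were lower in every double mutant library, with the smallest gap in replicate 3. Polygalacturonase PGAZAT fell by 1.62, AT3G09450, annotated as a fusaric acid resistance family protein, by 1.57 and the cysteine proteinase AT1G29090 by 1.19. The root meristem growth factor RGF9 fell by 0.98, the pectin lyase-like AT1G48100 by 0.97 and the cation/proton exchanger CHX17 by 0.90, with adjusted p of 0.0203, 0.0291 and 0.0128.

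Of the 10 tested genes on each side of WRKY40 edgeR called 0, with 3 at an unadjusted p below 0.05 and 1 called by DESeq2, and their changes ran from -0.27 to 0.70 with a median of 0.01. Within 1000000 bp of WRKY40, 3 of 264 tested genes were called, WRKY40 included, a share near the 1.46% over all genes tested. AT1G80850, which overlaps the end of WRKY40 by 51 bp, stood at 5.59 to 5.81 CPM in wrky18 and 6.496 to 7.49 CPM in the double mutant, a change of 0.27 ± 0.12 that was not called (adjusted p = 0.251). It was called higher in untreated wrky40 over WT (0.54 ± 0.11, adjusted p = 0.0252). In wrky18 wrky40 over wrky18 it was not called at 1 h of flg22 (0.37, adjusted p = 0.0755) but was at 2 h (0.71 ± 0.12, adjusted p = 0.000246).

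Some early genes of the response to microbe-associated molecular patterns (MAMPs) rose in the untreated double mutant. Of 24 tested members of a list of such genes 4 were called higher and none lower, 20 had a positive change, and the list's median was 0.54. Over all genes tested 1.01% were called higher, 0.454% lower and 47.8% had a positive change, with a median of -0.01, and the counts of the lists below stand beside these same shares. The 4 were PHI-1, a phosphate-induced gene, SARD1, which drives salicylic acid synthesis, CYP81F2, which hydroxylates indole glucosinolates, and MYB51, a regulator of that pathway. PHI-1 stood at 17.63, 18.1 and 34.5 CPM in wrky18 and at 43.2, 55.0 and 71.6 CPM in wrky18 wrky40, a change of 1.27 ± 0.25 (adjusted p = 0.0102). Replicate 3 was the highest of both groups, and the groups did not overlap. SARD1 changed by 1.24 ± 0.30 (adjusted p = 0.0311), CYP81F2 by 0.99 ± 0.25 and MYB51 by 0.67 ± 0.17 (adjusted p = 0.0366 for both). CYP81F2 had 3.44, 3.84 and 7.32 CPM in wrky18 and 7.22, 8.76 and 13.5 CPM in the double mutant, so that replicate 3 of wrky18 lay above replicate 1 of the double mutant. SARD1 overlaps another gene by 640 bp. WRKY33 at 0.89, WRKY53 at 0.60 and FRK1 at 0.09 were not called.

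Summed over this list, replicates 1, 2 and 3 had 153, 167 and 269 CPM in wrky18 and 263, 325 and 363 CPM in wrky18 wrky40, and WT had 131, 135 and 252 CPM. Replicate 3 was the highest in these 3 genotypes, and replicate 3 of wrky18 lay above replicate 1 of the double mutant. The number called was 6 with the replicate block and 0 in the fits of the untreated libraries alone or of the 6 libraries alone without it. It was 8, 1 and 0 without replicate 1, 2 or 3 of wrky18 wrky40 and 0, 0 and 10 without replicate 1, 2 or 3 of wrky18.

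Of 6 genes of touch and cold 4 were tested. TCH3, a calmodulin-like protein, was called higher at 0.49 ± 0.12 (adjusted p = 0.0366), and TCH4, a cell wall xyloglucan enzyme, reached 0.88 ± 0.24 (adjusted p = 0.0565; 0.0349 with the replicate block). The touch gene TCH2 and CBF2, a regulator of the cold response, stood at 0.26 and 0.89 without a call (adjusted p = 0.254 and 0.398). The summed level of the 4 was 203, 203 and 321 CPM in wrky18 and 333, 372 and 383 CPM in wrky18 wrky40, with no overlap, and 233, 196 and 292 CPM in WT. Replicate 3 was again the highest within each of these genotypes. The part of touch or cold in the higher level of the early MAMP genes was not tested.

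Of 29 tested genes of immune perception and signalling 4 were called higher and none lower, 23 had a positive change, and the median was 0.17. RBOHD, the NADPH oxidase of the immune oxidative burst, stood at 31.4, 32.5 and 42.1 CPM in wrky18 and at 43.4, 58.7 and 62.8 CPM in the double mutant, without overlap (0.64 ± 0.12, adjusted p = 0.0079). The receptor-like kinases SOBIR1 and BIR1 rose by 0.56 ± 0.12 and 0.38 ± 0.07, and BIK1, a cytoplasmic kinase that acts below FLS2, by 0.35 ± 0.08. BIK1 stood at 42.6, 45.3 and 49.9 CPM in wrky18 and 57.0, 55.5 and 63.5 CPM in wrky18 wrky40. In each of these 4 genes every double mutant library was above every wrky18 library. The number called was 0 to 7 on leaving out 1 library, and 0 in the fits of fewer libraries without the block.

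Camalexin and indole glucosinolate genes included 4 rises and no fall among 25 tested, with 21 positive and a median of 0.24. The rises numbered 8, 0 and 0 without replicate 1, 2 or 3 of wrky18 wrky40, 1, 0 and 5 without replicate 1, 2 or 3 of wrky18, and 0 in the fits of the untreated libraries or the 6 libraries alone without the block. 1 fall was called without replicate 3 of wrky18 and in the blocked fit of the untreated libraries. Besides CYP81F2 and MYB51, PAD3, the last enzyme of camalexin synthesis, rose from 4.01, 3.78 and 3.38 CPM to 7.22, 6.94 and 7.31 CPM, a change of 0.95 ± 0.25 (adjusted p = 0.045) with separate groups. PAD3 was called in 4 of 13 alternatives, and leaving out any 1 of the 6 libraries ended its call. PEN3, an ABC transporter of defence metabolites, changed by 0.45 ± 0.11 (adjusted p = 0.0341), with overlap between the groups. Among 15 aliphatic glucosinolate genes none was called, at a median of -0.02, where edgeR gave 2 higher and 1 lower at an unadjusted p below 0.05 and DESeq2 called 0. One of them, IMS2, was called with the replicate block (0.35, adjusted p = 0.0205).

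Few hormone markers were called. Of 27 salicylic acid genes tested BGL2 and SARD1 were called higher, 24 had a positive change, and the median was 0.28. Between 0 and 4 were called higher on leaving out 1 library, with 0 without replicate 2 or 3 of wrky18 wrky40 or replicate 1 or 2 of wrky18. PR1 changed by 2.01 and PR5 by 0.69 without a call (adjusted p = 0.152 and 0.0608), and PR5 was called with the replicate block (0.69, adjusted p = 0.047). Of 28 jasmonate genes only PDF1.2 was called, with 20 positive (71.4%) and a median of 0.15. Of 25 ethylene genes ACS7, an enzyme that makes the ethylene precursor, was called higher, with 8.38, 12.2 and 23.9 CPM in wrky18 and 27.3, 30.02 and 30.6 CPM in the double mutant (0.97 ± 0.23, adjusted p = 0.027). Replicate 3 of wrky18 lay closest to the double mutant. ACS7 was called in 7 of 13 alternatives. Of the 25 ethylene genes 23 had a positive change, at a median of 0.17. Between 0 and 5 were called higher on leaving out 1 library, and 0 in the fits of fewer libraries without the block. ERF6, an ethylene response factor, was called with the block (0.98, adjusted p = 0.0366). Of 23 abscisic acid genes none was called, with 1 higher and 2 lower at an unadjusted p below 0.05 in edgeR and 0 called by DESeq2, and the median was -0.06.

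Of 63 WRKY genes tested, WRKY18 and WRKY48 were called higher and WRKY40 lower, with 49 positive and a median of 0.26. The rises numbered 4, 0 and 1 without replicate 1, 2 or 3 of wrky18 wrky40, 1, 0 and 10 without replicate 1, 2 or 3 of wrky18, and 0 in the fits of the untreated libraries or the 6 libraries alone without the block. WRKY48 rose from 5.16, 3.78 and 6.55 CPM to 8.05, 9.25 and 9.35 CPM, a change of 0.78 ± 0.18 (adjusted p = 0.0271) with separate groups. With the replicate block 5 WRKY genes were called higher, WRKY6 among them (0.56, adjusted p = 0.0276).

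Of 20 tested clock genes COL2 and LHY were called lower, none higher, and the median was -0.21. The falls numbered 2, 1 and 1 without replicate 1, 2 or 3 of wrky18 wrky40 and 2, 0 and 4 without replicate 1, 2 or 3 of wrky18, where the last also gave 1 rise. They numbered 0 in the fit of the untreated libraries and 1 in that of the 6 libraries alone, both without the block. COL2, a CONSTANS-like protein, stood at 76.2, 84.9 and 68.8 CPM in wrky18 and 44.7, 43.5 and 42.2 CPM in wrky18 wrky40, a change of -0.82 ± 0.14 (adjusted p = 0.00376). LHY, a morning transcription factor of the clock, fell from 192, 179 and 198 CPM to 143, 125 and 134 CPM, a change of -0.50 ± 0.11 (adjusted p = 0.0135). The levels of both genes were separate and tight within each group. CCA1 and RVE8, of the same family as LHY, changed by -0.38 and -0.43 without a call (adjusted p = 0.0543 and 0.0562), and both were called with the replicate block (-0.38 and -0.43, adjusted p = 0.0358 and 0.0404). COL2 overlaps genes on the other strand by 771 and 688 bp. The sampling hour of each genotype is not given in the sources used here, and its part in these falls was not tested.

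Growth, stress and organ lists gave few calls. Of 26 auxin and growth genes EXPA1, an expansin, fell from 279, 352 and 221 CPM to 194, 164 and 170 CPM (-0.69 ± 0.14, adjusted p = 0.0104), and the kinase BSK6 rose by 0.25 ± 0.06 (adjusted p = 0.0365). With the block the homeobox gene HB-2 was also called higher (1.15 against 1.11 without it, adjusted p = 0.0208) and EXPA5 lower (-0.79, adjusted p = 0.045). Heat shock genes had a median of -0.62 over 12 tested and no call, with 3 lower at an unadjusted p below 0.05 in edgeR and 0 called by DESeq2. Their summed level was 530 CPM in replicate 1 of wrky18, 235 and 231 CPM in the others, and 191 to 262 CPM in the double mutant. Among 15 flavonoid genes edgeR put 4 lower at an unadjusted p below 0.05, and neither edgeR nor DESeq2 called any, at a median of -0.21. Among 9 mitochondrial stress genes none was called, 2 were higher and 1 lower at an unadjusted p below 0.05, DESeq2 called 2 higher, and BCS1 was called with the block (0.63, adjusted p = 0.0335).

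No organ marker was called. The 18 tested root markers gave 0 calls and 0 genes at an unadjusted p below 0.05 in edgeR, 0 calls in DESeq2 and a median of 0.08, and they summed to 2036 to 2132 CPM in wrky18 and 1999 to 2226 CPM in the double mutant. The 22 photosynthesis genes summed to 60750 to 65710 CPM and 56680 to 66240 CPM, with 0 calls by either tool and 1 gene lower at an unadjusted p below 0.05. The 10 reference genes had a median of 0.00, with 0 calls by either tool and 0 at an unadjusted p below 0.05.

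**Figure D3:**
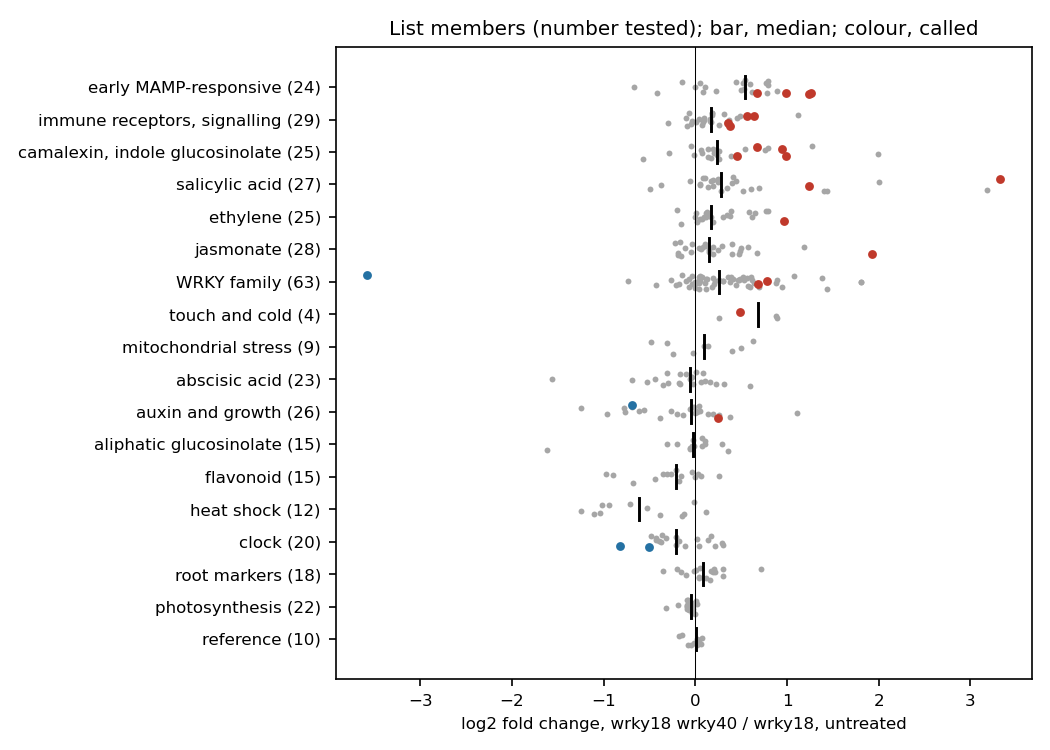
Log2 fold change of wrky18 wrky40 over wrky18 (x axis) of each tested member of 18 gene lists (rows, with the number tested), grey where not called, red where called higher and blue where called lower, with the list's median as a black bar. The early MAMP-responsive and touch and cold lists have medians of 0.54 and 0.68, heat shock has -0.62, and the photosynthesis and reference lists lie at -0.05 and 0.00.

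The called genes were compared with the response of WT to flg22, measured in libraries outside the groups compared. These WT libraries still entered the estimate of spread behind the calls, so the comparison was not fully independent. The part of that shared estimate in the shares below was not tested. Of the 215 genes higher in the untreated double mutant, 172 (80%) were called higher in WT after 1 h of flg22 and 17 lower, at a median of 1.97. Over all genes tested 28.8% were called higher in WT and the median was -0.05. Of the 97 genes lower in the double mutant 69 (71.1%) were called lower in WT after flg22, against 32.0% of all genes tested, at a median of -1.0. The WT comparison also holds the change of medium and 1 h of time, which cannot be told apart from flg22. The step curves of the WT response lie apart for the 3 sets of genes.

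**Figure D4:**
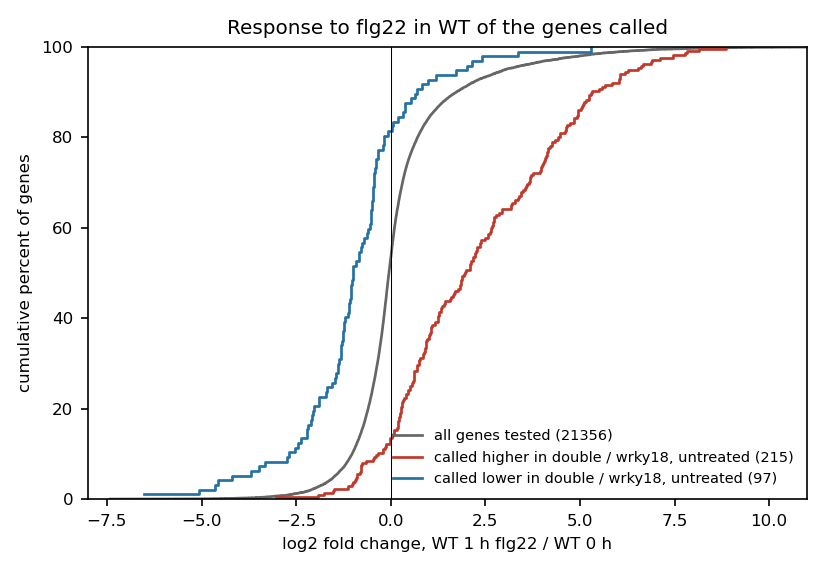
Cumulative percent of genes (y axis) by their log2 fold change in WT at 1 h of flg22 over WT at 0 h (x axis), for all genes tested (grey), the 215 called higher (red) and the 97 called lower (blue) in untreated wrky18 wrky40 over wrky18. The medians are -0.05, 1.97 and -1.0.

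Promoters were searched for the W box, here TTGACC or TTGACT on either strand in the 250 bp before the annotated gene start. At least 1 copy stood before 95 of the 215 genes called higher (44.2%), 29 of the 97 called lower (29.9%) and 6116 of 21219 tested genes with a promoter (28.8%). At least 2 copies stood before 8.84%, 5.15% and 6.28% of them. The windows of WRKY40, WRKY18, MRD1, HEI10, BGL2 and QQS held none of these letters. A match is a run of letters and not a shown binding site. The 3 promoters printed here, from the RefSeq TAIR10.1 assembly and read 5′ to 3′ on the gene's strand, are those of the called and named rises with the most copies and then the largest change, with the W box in capitals: CYP81F2 (chr5:23187590-23187839, plus strand), AT5G24240 (chr5:8234151-8234400, minus strand) and GSTF14 (chr1:18458276-18458525, plus strand).
CYP81F2: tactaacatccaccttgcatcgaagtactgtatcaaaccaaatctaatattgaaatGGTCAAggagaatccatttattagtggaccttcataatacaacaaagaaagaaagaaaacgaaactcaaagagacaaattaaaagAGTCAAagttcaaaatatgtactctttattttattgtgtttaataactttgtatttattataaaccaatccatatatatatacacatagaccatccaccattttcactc
AT5G24240: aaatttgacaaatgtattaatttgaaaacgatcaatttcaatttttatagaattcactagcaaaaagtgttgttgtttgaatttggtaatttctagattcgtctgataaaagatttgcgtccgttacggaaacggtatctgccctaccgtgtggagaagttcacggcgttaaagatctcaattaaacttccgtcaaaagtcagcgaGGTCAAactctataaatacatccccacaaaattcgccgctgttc
GSTF14: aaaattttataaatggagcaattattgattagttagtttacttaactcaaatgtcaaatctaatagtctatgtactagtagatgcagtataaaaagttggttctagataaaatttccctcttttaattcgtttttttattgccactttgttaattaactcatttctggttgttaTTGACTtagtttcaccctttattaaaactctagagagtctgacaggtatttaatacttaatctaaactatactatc
CYP81F2 carries 2 copies, both on the other strand, and the other genes carry 1 each.

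Loss of WRKY40 could be compared between backgrounds, because the untreated wrky40 and WT libraries are separate from the 6 compared above. All of them entered the same estimate of spread. The lines behind the genotypes are not given, so a difference shared by the wrky40 and wrky18 wrky40 lines cannot be told apart from loss of WRKY40. In WT background 71 genes (0.332%) were called, 66 higher (0.309%) and 5 lower (0.0234%), and 119 with the replicate block. The count was 241 and 47 without replicate 1 or 2 of wrky40 and 21, 19 and 227 without replicate 1, 2 or 3 of WT. Of the 215 genes higher in wrky18 wrky40, 165 (76.7%) also had a positive change in wrky40 over WT, against 50.4% of all genes tested, but their median there was only 0.14 and 11 were called higher. Of the 97 lower genes 31 (32%) were positive in wrky40. A total of 13 genes were called in both comparisons, 4.17% of the genes called in the wrky18 background and 18.3% of those called in the WT background, 11 higher in both and WRKY40 lower in both.

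MRD1 rose by 6.61 ± 0.24 with WRKY18 lost and by 6.60 ± 0.23 with WRKY18 present, where it went from 0.202 to 0.419 CPM in WT to 29.9 to 33.2 CPM in wrky40. HEI10 changed by 2.16 ± 0.17 and QQS by 2.78 ± 0.25 in wrky40 over WT, both called (adjusted p = 1.26e-09 and 2.1e-08). The other genes higher in both, named after their values were seen, were FUT4, a fucosyltransferase, PLA2A, a phospholipase, the terpenoid synthase TPS13, the cytochrome P450 CYP706A1, the legume lectin family gene AT3G15356, the methyltransferase AT1G15125, AT2G18690 and AT3G41979. PLA2A stood at 6.63, 7.02 and 7.87 CPM in wrky18 and 9.997, 13.6 and 15.6 CPM in wrky18 wrky40, and at 4.96 to 7.30 CPM in WT and 7.59 to 17.5 CPM in wrky40. Its changes were 0.86 ± 0.19 and 0.92 ± 0.19. The early MAMP list had a median of 0.68 in wrky40 over WT with 1 of 24 called.

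**Figure D5:**
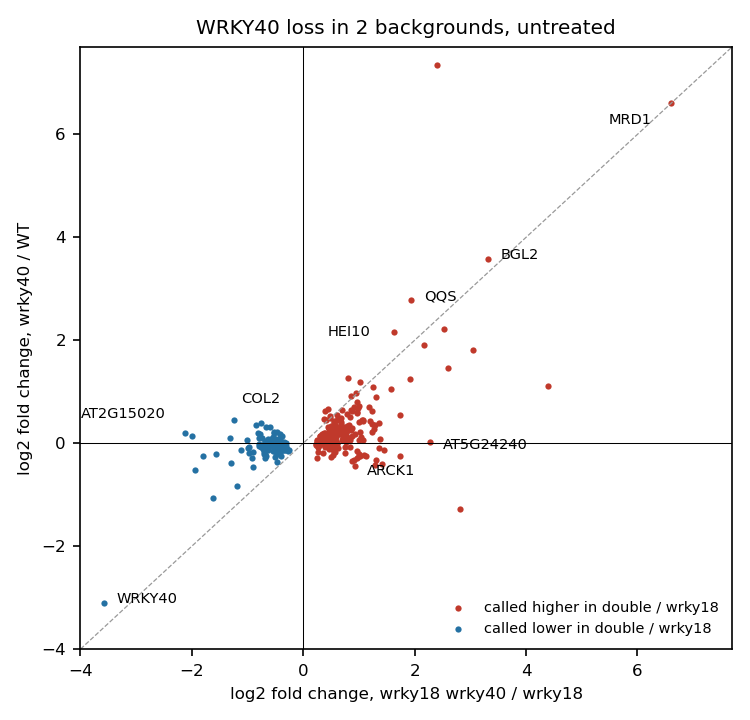
Log2 fold change of wrky18 wrky40 over wrky18 (x axis) against wrky40 over WT (y axis), untreated, for the 312 genes called in the first, red where higher and blue where lower, with the line of equal change dashed. MRD1 and WRKY40 lie near that line, AT2G15020 and AT5G24240 near 0 on the y axis, and the point at the top is AT3G41979.

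The difference between backgrounds was tested directly as the change with WRKY18 lost minus the change with WRKY18 present. It was called for 8 genes (0.0375%), 4 higher (0.0187%) and 4 lower (0.0187%), and for 27 with the replicate block. The count was 0 in the fits of the 12 untreated libraries alone, with 1330 genes at an unadjusted p below 0.05, and 42 in DESeq2. It was 5 without replicate 3 of wrky18 wrky40, 5 and 27 without replicate 2 or 3 of wrky18, 138 and 4 without replicate 1 or 2 of wrky40, and 18 and 15 without replicate 1 or 3 of WT. The 4 lower genes were AT2G15020, COL2, AT3G12320 and AT3G60690. This test and the comparisons within each background share their libraries. The backgrounds also differed in neighbours of WRKY18. Untreated means of AT4G31805 were 5.927 CPM in WT and 5.975 CPM in wrky40, but 0.01194 CPM in wrky18 and 0 CPM in wrky18 wrky40. Those of AT4G31810 were 28.41 and 27.29 CPM in WT and wrky40, and 19.86 and 18.94 CPM in wrky18 and wrky18 wrky40. The part of these neighbours in the difference between backgrounds was not tested. AT3G12320 stood at 51.8, 53.0 and 44.7 CPM in wrky18 and 32.0, 33.9 and 32.6 CPM in the double mutant, a change of -0.60 ± 0.10 (adjusted p = 0.0032), with 45.3 to 50.02 CPM in WT and 52.9 to 66.4 CPM in wrky40. The differences were -2.32 ± 0.46 for AT2G15020, -1.03 ± 0.20 for COL2 and -0.92 ± 0.14 for AT3G12320 (adjusted p = 0.0494, 0.0407 and 0.00575).

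Among the genes with a higher difference, ARCK1 changed by 1.00 with WRKY18 lost and by -0.25 with it present (difference 1.25 ± 0.20, adjusted p = 0.00575). The peroxidase AT5G39580 stood at 12.97, 12.98 and 17.8 CPM in wrky18 and 23.9, 23.7 and 32.8 CPM in the double mutant, and its changes were 0.87 and -0.35 (difference 1.22 ± 0.22, adjusted p = 0.0254). ATPMEPCRB, a pectin methylesterase, changed by 0.54 and -0.22. BSK6 stood at 24.7, 24.1 and 23.7 CPM in wrky18 and 29.8, 28.4 and 27.7 CPM in the double mutant, but at 25.6, 27.8 and 29.7 CPM in WT and 24.5, 22.6 and 21.0 CPM in wrky40. It was called in opposite directions in the 2 backgrounds, at 0.25 ± 0.06 and -0.29 ± 0.06 (adjusted p = 0.0365 and 0.0261). The call in the wrky18 background held in 3 of 13 alternatives and was lost on leaving out any 1 of the 6 libraries. AT5G24240 had a difference of 2.26 ± 0.48 that was not called (adjusted p = 0.0606).

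The same pair of genotypes was also sampled after flg22, in separate libraries that entered the same estimate of spread. At 1 h 1256 genes (5.88%) were called between wrky18 wrky40 and wrky18, 1964 with the replicate block and 580 to 1464 on leaving out 1 library. Of the 215 genes higher before treatment 150 (69.8%) were positive at 1 h, 38 were called higher (17.7%, against 4.39% of all genes tested) and 7 lower (3.26%, against 1.49%). At 2 h 1384 genes (6.48%) were called, 646 to 1160 on leaving out 1 library, and 155 (72.1%) of the 215 were positive, 45 called higher (20.9%, against 3.11%) and 4 lower (1.86%, against 3.37%). Of the 97 genes lower before treatment 14 were called lower at 1 h and 26 at 2 h, and none higher. WRKY40 stayed below its level in wrky18, at 25.5 ± 5.99 CPM (SD) in the double mutant and 282 ± 36.7 CPM in wrky18 at 1 h. Within the double mutant its transcript rose, from a mean of 0.717 CPM at 0 h to 25.5 CPM at 1 h and 39.7 CPM at 2 h. Untreated WT had a mean of 5.60 CPM. MRD1 stayed high, at changes of 6.34 and 5.92 at 1 h and 2 h.

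Whether the genotype difference changed with flg22 was tested as the difference at 1 h or 2 h minus that at 0 h. It was called for 146 genes at 1 h (0.684%), 73 in each direction (0.342%), and for 227 at 2 h (1.06%), 71 higher (0.332%) and 156 lower (0.730%), with 283 at 1 h with the replicate block, with 59 to 289 and 132 to 294 on leaving out 1 library. These tests share the untreated libraries with the comparison above, so no overlap with its calls is given. PHI-1 and AT5G24240 were named by their values at 0 h, so they were not chosen independently of these tests. The difference of PHI-1 was 1.27 before treatment, then -0.82 after 1 h and -0.19 after 2 h of flg22, and the turn from 0 h to 1 h passed the test (1 h minus 0 h, -2.08 ± 0.35, adjusted p = 0.00221). After 1 h its level was 178 ± 24.3 CPM in wrky18 and 101 ± 9.28 CPM in wrky18 wrky40 (SD). AT5G24240 went the other way. Its difference widened from 2.28 at 0 h to 3.98 at 1 h (1.70 ± 0.40 more, adjusted p = 0.0342) and was 3.5 at 2 h, with 2.57 ± 0.406 CPM in wrky18 and 40.5 ± 5.75 CPM in wrky18 wrky40 at 1 h (SD).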

How the data were processed

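PolyA RNA of whole seedlings was made into TruSeq Stranded libraries, per the labels' protocols. Per the submitters' processing notes the authors used FastQC 0.11.2, TopHat2 2.0.10, HTSeq and the TAIR10 build; the HTSeq version, its strand setting and read filters are not given in the sources used here. The authors deposited raw counts per gene and library, not normalized, with 6155 of 32678 genes at 0 throughout. Symbols and coordinates came from RefSeq TAIR10.1, where 21220 of the 21356 tested genes had an entry; 66 called genes overlapped another gene, 16 of them by at least 500 bp.

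Counts were analysed in edgeR 4.0.16 (R 4.3.3): filterByExpr by the 12 groups, TMM, and 1 quasi-likelihood model of group means over all 36 libraries with 24 residual degrees of freedom and a common biological coefficient of variation of 10.71%. Tests were two-sided, with Benjamini-Hochberg adjustment across the tested genes, and the SE of a log2 fold change is its size divided by the square root of F, which is unreliable for changes near 0. DESeq2 1.42.0, RLE size factors, no filter, a replicate block, fewer libraries, a 1.5-fold limit and leaving out each library were alternatives. Replicate numbers were taken to pair samples because deviations of same-numbered libraries from their group means correlated at 0.338, 0.151 and 0.353 between wrky18 wrky40 and wrky18 (17329 genes) and above 0.1 in the other pairs of untreated groups checked. The main model left this pairing out, and only the fits with the replicate block used it. The design text describes 3 sets of 12 samples. The model was tested on simulated data.

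Named genes were WRKY18, WRKY40 and WRKY60, the 12 largest called rises and falls with separate groups and a mean level of 1 log2 CPM or more, the 5 smallest adjusted p in each direction, the genes called in the difference between backgrounds, up to 4 genes with the smallest p per list, and the neighbours of both mutated genes. Members, lists and rules were chosen with earlier results of these data known.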

Additional observations from a re-analysis of the deposited data

Results flagged for a closer look

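The effect of WRKY40 loss differed between the wrky18 and WT backgrounds, by the test of that difference, in 8 genes. The change with WRKY18 lost minus the change with WRKY18 present was -2.32 in AT2G15020, -1.03 in COL2, -0.92 in AT3G12320 and -0.89 in AT3G60690, a SAUR-like gene that rose in wrky40 over WT (0.51 ± 0.11, adjusted p = 0.0223) and stood at -0.38 without a call in the wrky18 background. It was 0.53 in BSK6, 0.76 in ATPMEPCRB, 1.22 in AT5G39580 and 1.25 in ARCK1. In BSK6 every library of wrky18 wrky40 lay above every library of wrky18, and every library of wrky40 below every library of WT. BSK6 was chosen by the difference in these same libraries, so this separation is no further result. Its call in the wrky18 background held in 3 of 13 alternatives.

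The difference between wrky18 wrky40 and wrky18 at 1 h of flg22 minus that at 0 h passed its test in 8 named genes. Over all genes tested it was called in 0.684%. All 8 were named by values at 0 h, which this difference subtracts, so their passing and its sign are no independent result. The difference was -1.90 in CML38, -1.49 in AT4G24110, -2.22 in AT1G77640 and -2.08 in PHI-1. It was -0.91 in DIC2, a mitochondrial dicarboxylate carrier, -1.60 in TCH4, -0.72 in TCH2 and 1.70 in AT5G24240.

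At 2 h it was -1.68 in AT4G24110, -2.34 in AT1G29090, -0.40 in BSK6, -1.46 in PHI-1, -1.18 in CYP94C1, an enzyme of jasmonate breakdown, -1.57 in DIC2, -1.11 in HSP70, -0.69 in TCH2, -0.98 in ATPMEPCRB and -0.56 in AT1G80870, a neighbour of WRKY40, and 0.99 in CHX17 and 0.80 in EXPA1. AT1G29090 was already lower before treatment (-1.19) and reached -3.53 at 2 h. ATPMEPCRB was called higher before treatment (0.54) and lower at 2 h (-0.44, adjusted p = 0.00352). The touch genes TCH2 and TCH4 were not called before treatment. Over all genes tested 1.06% were called for 2 h minus 0 h. All genes given for 2 h except AT1G80870 were chosen by values that include the 0 h libraries, so their passing is no independent result.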

How the results depend on the processing

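The alternative that combines the replicate block with the 12 untreated libraries alone was chosen after seeing the data. None of the 47 named genes that were called changed sign under any alternative. The replicate block gave 640 calls for wrky18 wrky40 against wrky18 at 0 h (375 in the untreated libraries alone). It gave 119 for wrky40 against WT (37) and 27 for the difference between backgrounds. The count with the block was 1964 at 1 h and 283 for 1 h minus 0 h. For wrky18 wrky40 against wrky18 at 0 h the block added 10 named genes and lost none. DESeq2 gave 623, 185, 42, 330 (1 h minus 0 h) and 395 (2 h minus 0 h). The 12 untreated libraries alone gave 5, 5 and 0, and the compared groups alone 6, 3, 0, 73 and 136. Without a filter the difference between backgrounds had 22 calls. A limit of 1.5-fold left 159 genes at 0 h, 413 at 1 h, 675 at 2 h and 8417 for flg22 in WT. Leaving out 1 library gave 16 to 725, 19 to 241, 4 to 138, 580 to 1464 (1 h), 646 to 1160 (2 h), 59 to 289 (1 h minus 0 h) and 132 to 294 (2 h minus 0 h). At 1 h the count was 669 and 699 without replicate 1 or 3 of the double mutant and 580 and 613 without replicate 1 or 2 of wrky18; at 2 h it was 863 without replicate 2 of the double mutant and 646 without replicate 3 of wrky18. For 1 h minus 0 h it was 83 and 88 without replicate 2 or 3 of the untreated double mutant, 67 and 289 without replicate 2 or 3 of untreated wrky18, 59 and 85 without replicate 1 or 2 of the double mutant at 1 h, and 68 and 87 without replicate 1 or 2 of wrky18 at 1 h. For 2 h minus 0 h it was 142 and 144 without replicate 2 or 3 of the untreated double mutant, 151 and 134 without replicate 1 or 2 of it at 2 h, and 132 without replicate 3 of wrky18 at 2 h. The cause was not tested. With 3 libraries a group, small changes of low genes lie within the spread.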

Other observations

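Counts of 2 further gene groups were made after seeing the data. Among 13 core genes of the response to low oxygen, chosen after seeing the data, 3 were called higher in untreated wrky18 wrky40 over wrky18, namely AT5G39890, a plant cysteine oxidase gene, at 1.303 (adjusted p = 0.0476), CML38 at 1.37 and SRO5 at 1.295, and 12 had a positive change, at a median of 0.28. Over all genes tested 1.01% were called higher and 47.8% were positive. In wrky40 over WT 3 of the 13 were positive, at a median of -0.39. The summed level of the group was 972, 727 and 695 CPM in replicates 1, 2 and 3 of wrky18 and 1045, 1012 and 938 CPM in the double mutant, so replicate 1 of wrky18 lay above replicate 3 of the double mutant. In WT it was 848, 866 and 792 CPM and in wrky40 856, 558 and 479 CPM.

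Among 108 tested genes whose annotated product names a C1 domain, also chosen after seeing the data, 5 were called higher and none lower, 83 were positive, against the same 1.01% and 47.8% over all genes tested, and the median was 0.25. In wrky40 over WT 52 were positive and the median was -0.01.

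The first principal component of the 12 untreated libraries held 28.84% of the variance and placed replicate 3 of each genotype above replicates 1 and 2. Within each replicate number the double mutant was also the highest genotype on this component, at -0.005, 0.147 and 0.503 in replicates 1, 2 and 3. The second held 20.05% and was positive in the 3 double mutant libraries, at 0.289 to 0.383, and in replicate 1 of wrky18 and of wrky40. The median SD of log2 CPM between libraries was 0.137 in untreated wrky18 and 0.118 in untreated wrky18 wrky40.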
